A study of Homo sapiens with 12 samples.

Results

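The 10 immediate early genes described here encode subunits of the transcription factor AP-1 (FOS, FOSB, JUN, JUNB and the related ATF3), zinc finger transcription factors of the EGR family (EGR1, EGR2 and EGR3), the nuclear protein IER2 and the phosphatase DUSP1. They were taken by gene symbol from a table of 26481 genes and were chosen because earlier results of the same counts had them high in doxorubicin relapses. All 10 passed the filter on low counts, as did 14164 genes in all. RNA was sequenced from HEL, an established human erythroleukemia line of acute myeloid leukemia (AML), which had been labelled with DNA barcodes before treatment. Untreated cells (NT, n = 2) were grown with DMSO only. The other groups were relapses, that is, cultures that regrew to the starting cell number in about 30 days after 72 to 74 h of drug. The Doxo group (n = 3) had received doxorubicin, which damages DNA, at 1.8 µM. In Doxo+Cyta (n = 3) the nucleoside analog cytarabine was added at 6 µM, and in Doxo+Cyta+DAC (n = 4) decitabine, which blocks DNA methyltransferases, was given as well at 0.1 µM. All groups come from 1 cell line, no group analysed here received cytarabine or decitabine alone, and RNA was taken after regrowth and not during drug exposure.

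Immediate early genes are transcribed within minutes of a stimulus such as a growth factor, stress or DNA damage, without prior protein synthesis. MAP kinase signalling switches them on through factors that already sit on their promoters, chiefly SRF with its ETS-family partners on CArG boxes and CREB or ATF proteins on cAMP response elements (CRE). FOS and JUN proteins then pair to form AP-1, EGR proteins bind GC-rich sites, and DUSP1 dephosphorylates the MAP kinases and so closes a feedback loop. In myeloid cells AP-1 and EGR factors are known for their part in monocytic differentiation.

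Library totals lay between 12763582 and 19106235 counts. Levels are given in CPM, that is, relative to a library size corrected by edgeR's TMM factors, and 3 counts of a library, the floor used here, correspond to 0.154 to 0.238 CPM. This floor covers counting error only. The 10 erythroid marker genes were present in every library, with a summed level of 5690 to 8342 CPM in Doxo+Cyta+DAC and of 7263 to 10194 CPM in the other groups. The megakaryocyte markers summed to 1158 to 1456 CPM in Doxo+Cyta+DAC and to 1763 to 2215 CPM in the others. Of the markers of other blood cells and fibroblasts, CD163, ELANE, PRTN3, MS4A1 and LUM had no count in any library. The summed monocyte and macrophage markers were 46.3 to 48.1 CPM in NT, 55.2 to 67.1 in Doxo, 62.2 to 71.9 in Doxo+Cyta and 45.1 to 54.3 in Doxo+Cyta+DAC, and this sum was not highest in Doxo. Of its 4 tested genes, FCGR3A and LYZ were higher in Doxo than in NT (log2 fold changes 3.23, SE 0.69, adjusted p = 0.0115, and 0.52, SE 0.16, adjusted p = 0.0477, edgeR). These genes were picked on a contrast with Doxo, so their p-values are descriptive. Neither was called without NT 1, NT 2 or Doxo 5, and 1 of them was without any single one of 7 other libraries. FCGR3A had 14 to 36 counts in Doxo, 9 to 17 in Doxo+Cyta and at most 5 elsewhere. The summed lymphocyte markers, of which 3 of 5 had at most 3 counts in every library, were 30.3 to 32.6 CPM in NT, 50.1 to 58.8 in Doxo, 39.4 to 57.8 in Doxo+Cyta and 20.9 to 45.1 in Doxo+Cyta+DAC. The granulocyte markers summed to 1.03 to 2.45 CPM in Doxo+Cyta+DAC and to 4.29 to 7.76 CPM in the other groups. Of these granulocyte markers, 3 of 4 had at most 3 counts in every library, and only CSF3R was tested. The fibroblast markers summed to 6.60 to 9.66 CPM in Doxo+Cyta+DAC, 40.1 to 45.1 in Doxo and 34.9 to 51.9 in the remaining groups. Of these fibroblast markers, 3 of 5 had at most 3 counts in every library. The part of these markers in the results was not tested. Doxo+Cyta 20 had the largest share of its counts in its 100 highest genes (26.6%, against 19.0 to 23.6% in the others). In bulk RNA, fewer cells that express a gene and less RNA per cell cannot be told apart.

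Promoter sequence was read from RefSeq on GRCh38.p14 for 9 of the 10 genes, as the 250 bases before each annotated start. The 4 stretches below come from the 2 genes with CArG boxes and from 2 that hold both a CRE half-site and a TATA box; they are given 5′ to 3′ on the gene's strand, with these motifs in capitals. FOSB is on the plus strand (chr19:45467846-45467994), EGR1 on the plus strand (chr5:138465329-138465478), EGR2 on the minus strand, before its downstream start (chr10:62816367-62816516), and DUSP1 on the minus strand (chr5:172771201-172771345).
FOSB: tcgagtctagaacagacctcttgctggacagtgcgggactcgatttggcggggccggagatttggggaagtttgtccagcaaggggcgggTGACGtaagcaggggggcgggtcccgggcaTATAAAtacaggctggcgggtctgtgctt
EGR1: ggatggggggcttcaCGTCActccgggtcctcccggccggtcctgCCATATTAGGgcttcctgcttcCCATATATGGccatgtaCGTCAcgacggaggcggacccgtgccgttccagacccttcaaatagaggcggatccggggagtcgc
EGR2: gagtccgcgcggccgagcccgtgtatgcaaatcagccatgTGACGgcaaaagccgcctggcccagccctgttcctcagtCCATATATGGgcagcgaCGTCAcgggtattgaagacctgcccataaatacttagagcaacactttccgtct
DUSP1: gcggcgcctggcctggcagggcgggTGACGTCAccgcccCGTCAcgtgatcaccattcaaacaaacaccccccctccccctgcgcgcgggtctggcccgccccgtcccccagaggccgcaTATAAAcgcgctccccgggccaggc
Motifs were searched on both strands. The CRE half-site TGACG lay in the window of 8 of the 9 genes, all but ATF3. Counted by annotated start it lay in 8 of 12 windows, since some genes have several, beside 21.2% of 35116 RefSeq promoters. In DUSP1 it forms a full palindromic CRE, in which the half-sites of the 2 strands overlap. CArG boxes lay before EGR1, in 2 copies, and before the downstream start of EGR2, that is, in 2 of 12 windows, and in 1.16% of all promoters. The TATA box letters TATAAA lay before 5 genes (ATF3, DUSP1, FOS, JUNB and FOSB; 5 of 12 windows, and 10.7% of all promoters). The match of ATF3 was at -230 to -225 from a downstream start, and those of the others lay between -33 and -25. The EGR site GCGNGGGCG lay before EGR1 alone (1 of 12 windows, and 8.41% of all promoters), and the AP-1 site TGANTCA before none of the 9 (6.57%). Such matches describe the letters of these windows only.

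All 10 genes had a higher mean level in Doxo than in each other group, and for 9 of them every Doxo library was above all 9 libraries of the other groups. The exception was IER2. This pattern held for 2.8% of all tested genes (396 of 14164), and since the members were chosen on it, it is given as a description. The margin between the lowest Doxo library and the highest other library ran from 1.13-fold for JUNB to 6.27-fold for EGR2. Without Doxo 4 the count over all tested genes was 1729, and that of members was again 9.

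FOS, on chromosome 14 from 75278778 to 75282234, encodes the classical partner of JUN in AP-1. It had 5.76 and 3.75 CPM in NT, 28.5, 19.6 and 22.0 in Doxo, 5.87, 9.34 and 3.48 in Doxo+Cyta, and 6.92, 3.78, 6.72 and 7.05 in Doxo+Cyta+DAC. The Doxo libraries stood alone, and the other 3 groups overlapped one another. The level in Doxo was 4.88-fold that in NT (log2 fold change 2.29, SE 0.37), 3.75-fold that in Doxo+Cyta (1.91, SE 0.31) and 3.81-fold that in Doxo+Cyta+DAC (1.93, SE 0.28). Among the other groups FOS passed no test (adjusted p between 0.415 and 0.958, edgeR's quasi-likelihood test with Benjamini-Hochberg adjustment).

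FOSB, on chromosome 19 from 45467995 to 45475179, encodes another FOS protein and had the largest difference from NT. Its levels were 6.38 and 8.22 CPM in NT, 210, 152 and 150 in Doxo, 17.5, 19.6 and 18.7 in Doxo+Cyta, and 33.4, 17.4, 42.3 and 35.9 in Doxo+Cyta+DAC. The order was Doxo, Doxo+Cyta+DAC, Doxo+Cyta and NT, and of these neighbours only Doxo+Cyta+DAC and Doxo+Cyta overlapped, through the library Doxo+Cyta+DAC 31. The Doxo mean of 171 ± 34.0 CPM (SD, n = 3) was 23.4-fold that of NT, 9.17-fold that of Doxo+Cyta and 5.28-fold that of Doxo+Cyta+DAC (log2 fold changes 4.55, SE 0.33; 3.20, SE 0.26; 2.40, SE 0.22). FOSB also rose in the combination relapses: the log2 fold change over NT was 2.15 for Doxo+Cyta+DAC (SE 0.30, adjusted p = 7.22e-05, edgeR) and 1.35 for Doxo+Cyta (SE 0.30, adjusted p = 0.0461, edgeR). The call in Doxo+Cyta was lost with only the 2 groups compared in the fit (adjusted p = 0.0648, edgeR) and when any of 9 of the 12 libraries was left out (adjusted p 0.295 without NT 1, 0.389 without NT 2, and 0.0638 to 0.0821 without Doxo 5, Doxo 6, Doxo+Cyta 19, 20 or 22, or Doxo+Cyta+DAC 30 or 33). Doxo+Cyta was lower than Doxo+Cyta+DAC by a log2 fold change of -0.80 (SE 0.23, adjusted p = 0.00933, edgeR).

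JUN, a single-exon gene on chromosome 1 from 58780791 to 58784113, encodes the DNA-binding partner of FOS proteins. It had 64.1 and 55.2 CPM in NT, 208, 262 and 272 in Doxo, 129, 125 and 141 in Doxo+Cyta, and 124, 123, 102 and 100 in Doxo+Cyta+DAC. No 2 groups overlapped, and every relapse library lay above NT. In Doxo the level was 4.15-fold that in NT (log2 fold change 2.05, SE 0.16) and 1.88-fold that in Doxo+Cyta (0.91, SE 0.13). JUN rose relative to NT both in Doxo+Cyta (log2 fold change 1.14, SE 0.15, adjusted p = 0.0113, edgeR) and in Doxo+Cyta+DAC (0.91, SE 0.14, adjusted p = 0.000185, edgeR). The call in Doxo+Cyta was lost without NT 1 (adjusted p = 0.17, edgeR) or NT 2 (adjusted p = 0.27, edgeR), where 1 NT library remained, and with only these 2 groups in the fit (adjusted p = 0.0625, edgeR). Doxo+Cyta and Doxo+Cyta+DAC, 132 ± 8.52 CPM (SD, n = 3) and 112 ± 12.8 CPM (SD, n = 4), did not pass the test (log2 fold change 0.23, SE 0.12, adjusted p = 0.109, edgeR), but did with upper-quartile scaling (0.32, adjusted p = 0.0288).

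JUNB, a single-exon gene on chromosome 19 from 12791496 to 12793311, encodes a JUN protein that often opposes JUN in proliferation. Its levels were 148 and 132 CPM in NT, 347, 314 and 336 in Doxo, 144, 279 and 153 in Doxo+Cyta, and 135, 157, 134 and 127 in Doxo+Cyta+DAC. The Doxo libraries agreed within 1.10-fold, while Doxo+Cyta 20 stood far above the other Doxo+Cyta libraries. The level in Doxo was 2.37-fold that in NT (log2 fold change 1.25, SE 0.23), and NT and Doxo+Cyta+DAC were at 140 ± 11.6 CPM (SD, n = 2) and 138 ± 13.0 CPM (SD, n = 4). JUNB was higher in Doxo+Cyta than in Doxo+Cyta+DAC by 0.47 on the log2 scale (SE 0.18, adjusted p = 0.0367, edgeR), and without Doxo+Cyta 20 the difference was 0.10 (adjusted p = 0.389, edgeR). This call was also lost without Doxo+Cyta+DAC 30, 32 or 33 (adjusted p 0.0712 to 0.0827) and with only these 2 groups in the fit (adjusted p 0.0743).

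ATF3, on chromosome 1 from 212565334 to 212620777, encodes a stress-induced factor that dimerises with JUN proteins. It had 13.5 and 14.8 CPM in NT, 46.0, 54.7 and 53.8 in Doxo, 11.7, 25.8 and 13.3 in Doxo+Cyta, and 10.9, 19.4, 14.2 and 19.4 in Doxo+Cyta+DAC. As for FOS, only Doxo stood apart and the other 3 groups overlapped. In Doxo the level was 3.63-fold that in NT (log2 fold change 1.86, SE 0.31), 3.04-fold that in Doxo+Cyta (1.60, SE 0.27) and 3.23-fold that in Doxo+Cyta+DAC (1.69, SE 0.25). No test among the other groups was passed (adjusted p between 0.656 and 0.78, edgeR).

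EGR1, on chromosome 5 from 138465492 to 138469315, encodes the most widely studied EGR factor. It had 258 and 235 CPM in NT, 493, 445 and 444 in Doxo, 87.7, 243 and 123 in Doxo+Cyta, and 45.0, 60.2, 60.6 and 57.4 in Doxo+Cyta+DAC. The order was Doxo, NT, Doxo+Cyta and Doxo+Cyta+DAC. NT and Doxo+Cyta overlapped, and Doxo+Cyta+DAC lay below all other libraries. The level in Doxo was 1.87-fold that in NT (log2 fold change 0.90, SE 0.30) and 8.25-fold that in Doxo+Cyta+DAC (3.05, SE 0.25). Against NT, EGR1 fell by 2.15 on the log2 scale in Doxo+Cyta+DAC (SE 0.27, adjusted p = 3.18e-05, edgeR), and was higher in Doxo+Cyta than in Doxo+Cyta+DAC (log2 fold change 1.44, SE 0.24, adjusted p = 0.000177, edgeR). Doxo+Cyta and NT did not pass the test (log2 fold change -0.70, SE 0.29, adjusted p = 0.189, edgeR). Without Doxo+Cyta 20, which was at the level of NT, that difference was -1.25 (adjusted p = 0.0105, edgeR).

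EGR2, on chromosome 10 from 62811996 to 62819167, encodes an EGR factor known in macrophage and Schwann cell programs. Outside Doxo it was near the limit of detection: it had 0.566 and 0.655 CPM in NT (11 counts in each), 0.371, 1.47 and 0.611 in Doxo+Cyta, and 0.368, 0.619, 0.420 and 0.713 in Doxo+Cyta+DAC. The Doxo libraries had 10.6, 9.20 and 9.28 CPM, at least 147 counts each. The level in Doxo was 15.7-fold that in NT (log2 fold change 3.98, SE 0.42), 11.9-fold that in Doxo+Cyta (3.57, SE 0.35) and 18.5-fold that in Doxo+Cyta+DAC (4.21, SE 0.33). The other 3 groups overlapped, and at this depth no difference among them was detectable (adjusted p between 0.207 and 0.716, edgeR). Between Doxo+Cyta and Doxo+Cyta+DAC, the log2 fold change was 0.99 without Doxo+Cyta 19 (adjusted p = 0.0481, edgeR) and -0.07 without Doxo+Cyta 20 (adjusted p = 0.921, edgeR).

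EGR3, on chromosome 8 from 22687661 to 22693302, encodes an EGR factor that EGR1 itself can induce. It had 0.514 and 0.834 CPM in NT, 21.5, 10.2 and 7.89 in Doxo, 1.24, 1.20 and 0.794 in Doxo+Cyta, and 2.27, 3.30, 4.09 and 2.85 in Doxo+Cyta+DAC. Doxo 4 was well above the other Doxo libraries, so that the Doxo mean of 13.2 ± 7.29 CPM (SD, n = 3) had the widest relative spread of the 10 genes. The difference from NT was 19.5-fold (log2 fold change 4.29, SE 0.49), and 3.72 on the log2 scale without Doxo 4. EGR3 moved opposite to EGR1 in Doxo+Cyta+DAC: it rose relative to NT (log2 fold change 2.23, SE 0.48, adjusted p = 0.00188, edgeR) and was lower in Doxo+Cyta than in Doxo+Cyta+DAC (-1.54, SE 0.39, adjusted p = 0.0037, edgeR). Doxo+Cyta and NT overlapped and did not pass the test (log2 fold change 0.68, SE 0.55, adjusted p = 0.514, edgeR).

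IER2, on chromosome 19 from 13150468 to 13154904, encodes a short nuclear protein and had the highest mean per kilobase of exon of the 10 genes in every group. It had 283 and 264 CPM in NT, 674, 434 and 461 in Doxo, 165, 458 and 176 in Doxo+Cyta, and 210, 209, 218 and 192 in Doxo+Cyta+DAC. Doxo and Doxo+Cyta overlapped through Doxo+Cyta 20. The level in Doxo was 1.91-fold that in NT (log2 fold change 0.93, SE 0.34), 1.96-fold that in Doxo+Cyta (0.97, SE 0.30) and 2.52-fold that in Doxo+Cyta+DAC (1.33, SE 0.28), and the difference from Doxo+Cyta was 1.61 on the log2 scale without Doxo+Cyta 20. Among the other groups IER2 passed no test (adjusted p between 0.275 and 0.966, edgeR), although all Doxo+Cyta+DAC libraries lay below NT (log2 fold change -0.40, SE 0.31). Without Doxo+Cyta 20 in the fit, that difference was -0.42 with an adjusted p of 0.0224 (edgeR), and with only NT and Doxo+Cyta+DAC in the fit it was -0.43 with an adjusted p of 0.00112.

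DUSP1, on chromosome 5 from 172768090 to 172771200, encodes the phosphatase that inactivates p38, JNK and ERK. It had 21.2 and 20.4 CPM in NT, 41.7, 59.3 and 61.7 in Doxo, 30.0, 33.0 and 32.6 in Doxo+Cyta, and 17.1, 12.3, 14.2 and 16.8 in Doxo+Cyta+DAC. The 4 groups did not overlap, in the order Doxo, Doxo+Cyta, NT and Doxo+Cyta+DAC. The level in Doxo was 2.61-fold that in NT (log2 fold change 1.38, SE 0.19) and 3.60-fold that in Doxo+Cyta+DAC (1.85, SE 0.15). DUSP1 was higher in Doxo+Cyta than in Doxo+Cyta+DAC (log2 fold change 1.08, SE 0.15, adjusted p = 3.51e-05, edgeR), and fell in Doxo+Cyta+DAC relative to NT (-0.46, SE 0.17, adjusted p = 0.0373, edgeR). The latter call was lost without NT 1 (adjusted p = 0.167), NT 2 (0.117), Doxo+Cyta+DAC 31 (0.0847) or Doxo+Cyta+DAC 32 (0.0792). In Doxo+Cyta relative to NT it was 0.61 higher on the log2 scale, with an adjusted p of 0.0952 (SE 0.18, edgeR), of 0.036 without Doxo 4, and of 0.0363 with the Wald test of DESeq2.

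Counted over the list, 8 of the 10 genes were past an adjusted p of 0.05 and higher in Doxo than in NT (all but EGR1 and IER2), where 6.06% of all tested genes were higher and 4.63% lower. In Doxo relative to Doxo+Cyta 9 of 10 were (all but IER2), beside 2.32% of genes higher and 1.07% lower, and in Doxo relative to Doxo+Cyta+DAC 10 of 10, beside 30.4% higher and 29.1% lower. These counts rest on the contrasts from which the members were chosen, and are a description. Without NT 2 the count of members in Doxo relative to NT was 5. The median log2 fold change of the 10 genes was 1.96, 1.60 and 1.89 in the 3 comparisons, and that of all tested genes 0.01, -0.01 and 0.01.

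**Figure D1:**
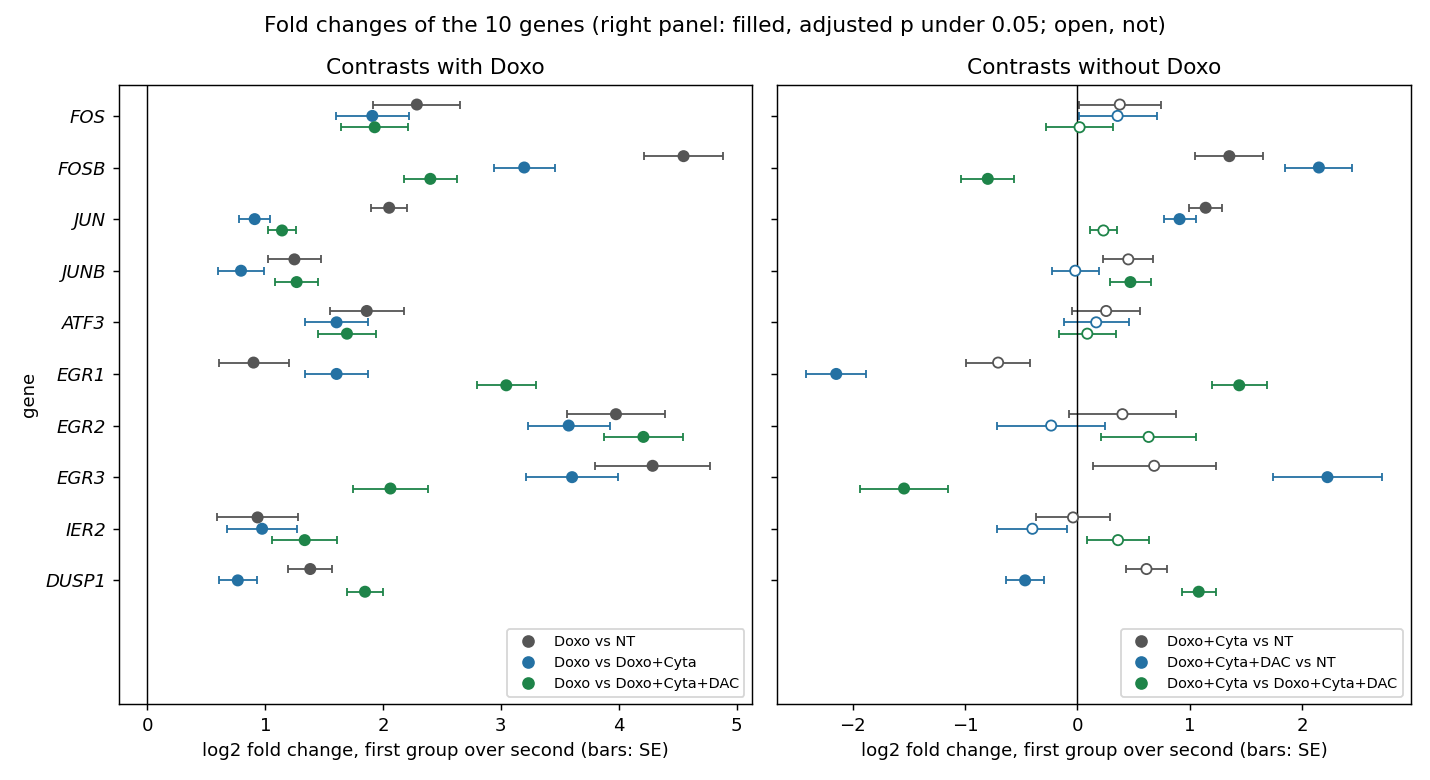
Log2 fold changes of the 10 genes with their standard errors; on the left the contrasts of Doxo with the 3 other groups, on the right the contrasts among those groups, where filled points passed an adjusted p of 0.05. On the left all values lie between 0.77 and 4.55; on the right FOSB and EGR3 are on the opposite side of 0 from EGR1 and DUSP1 in both comparisons with Doxo+Cyta+DAC.

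The 3 comparisons among NT, Doxo+Cyta and Doxo+Cyta+DAC hold no Doxo library, although each shares libraries with the contrasts used for the choice. In Doxo+Cyta relative to NT, FOSB and JUN were higher and no member was lower (0.911% of all tested genes were higher and 0.551% lower), and no member was called without NT 1 or without NT 2. A single call, that of JUN, was left without Doxo 5, Doxo 6, Doxo+Cyta 19, Doxo+Cyta 22, Doxo+Cyta+DAC 30 or Doxo+Cyta+DAC 33, and the calls without Doxo+Cyta 20 were JUN and EGR1. In Doxo+Cyta+DAC relative to NT, FOSB, JUN and EGR3 were higher and EGR1 and DUSP1 lower (24.9% of all tested genes were higher and 23.7% lower). Between the combination relapses, with Doxo+Cyta+DAC as the reference, JUNB, EGR1 and DUSP1 were higher and FOSB and EGR3 lower (30.5% of all tested genes were higher and 29.8% lower). Members thus changed in both directions, and 5 of 10 calls stand beside a background of about the same share in the comparisons with Doxo+Cyta+DAC. The median log2 fold changes were 0.43, 0.07 and 0.30, against 0.01, 0.02 and -0.00 over all tested genes.

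Levels per kilobase of exon can be set side by side only roughly, because the aligner did not split reads over exon junctions and JUN and JUNB have 1 exon, whereas FOS and FOSB have 4 and ATF3 has 6. On this scale the order in Doxo was IER2 (256 ± 64.1 CPM per kb), JUNB (183 ± 9.16), EGR1 (147 ± 9.01), JUN (74.4 ± 10.4), FOSB (45.2 ± 9.01), DUSP1 (26.8 ± 5.37), ATF3 (20.2 ± 1.88), FOS (10.8 ± 2.16), EGR2 (3.08 ± 0.252) and EGR3 (2.93 ± 1.62; SD, n = 3 for each). Of the neighbours in this order, the libraries of DUSP1 and ATF3 and those of EGR2 and EGR3 overlapped. The part of exon number in this order was not tested. In NT, FOSB (1.93 ± 0.345 CPM per kb; SD, n = 2) and FOS (2.20 ± 0.658; SD, n = 2) were at about the same level per kilobase, whereas in Doxo FOSB was above FOS in every library. The genes with the lowest levels in NT, EGR3, EGR2, FOSB and FOS, had the highest fold changes in Doxo relative to NT, and EGR1 and IER2, among the highest in NT, had the lowest. The NT level is the denominator of these fold changes, so this relation is a description. EGR2 and EGR3 had 10 to 14 counts in NT.

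The Doxo+Cyta group was not uniform for these genes. Its library 20 was the highest of the 3 for 8 of the 10 genes, all but JUN and EGR3. Over all tested genes this library was the highest for 45.3% and the lowest for 39.7%. The ratio of the highest to the lowest Doxo+Cyta library was 3.96 for EGR2, 2.78 for IER2, 2.77 for EGR1 and 2.68 for FOS, but 1.10 for DUSP1, 1.12 for FOSB and 1.13 for JUN. Within 1 group, then, FOSB, JUN and DUSP1 were even while EGR1, EGR2, FOS, IER2, JUNB and ATF3 were not. Without library 20, the log2 difference between Doxo and Doxo+Cyta was 2.12 in place of 1.61 for EGR1, 4.27 in place of 3.57 for EGR2, 1.16 in place of 0.79 for JUNB and 2.03 in place of 1.60 for ATF3. In Doxo, library 4 was the highest for 7 of 10 genes and the lowest for JUN, DUSP1 and ATF3, and over all tested genes it was the highest for 43.7% and the lowest for 43.5%. The part of these libraries' overall state in the values of single genes was not tested.

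**Figure D2:**
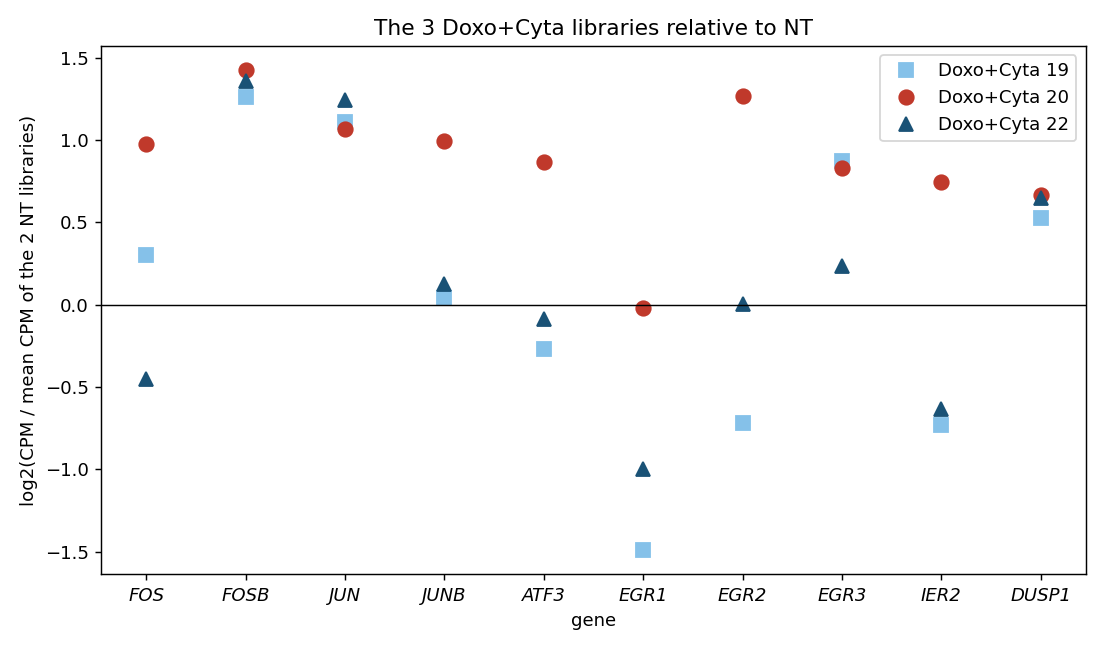
The 3 Doxo+Cyta libraries gene by gene, as log2 of their CPM over the mean CPM of the 2 NT libraries; the line at 0 is NT. Library 20 is above both others for 8 genes, while the 3 points nearly coincide for FOSB, JUN and DUSP1.

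The genes of the same pathway were counted from lists written from common knowledge, with earlier results of these data known. Their counts in contrasts with Doxo are therefore a description. Of 45 other tested immediate early genes, 16 were higher and none lower in Doxo than in Doxo+Cyta, 24 were higher and none lower than in NT, and against Doxo+Cyta+DAC 29 were higher and 6 lower. Their median log2 fold changes were 0.72, 0.97 and 1.21, beside the medians near 0 of all genes. Of all tested genes, 2.32% were higher and 1.07% lower than in Doxo+Cyta, 6.06% and 4.63% than in NT, and 30.4% and 29.1% than in Doxo+Cyta+DAC. The count relative to NT was 7 without NT 1 and 10 without NT 2, and that relative to Doxo+Cyta was 9 without Doxo+Cyta 19. In the comparisons without Doxo, 2 were higher and 1 lower in Doxo+Cyta than in NT (0 called without NT 1, NT 2 or Doxo+Cyta 22, 1 without any single one of 6 others, and 7 without Doxo 4), 12 higher and 9 lower in Doxo+Cyta+DAC than in NT, and 18 higher and 9 lower in Doxo+Cyta than in Doxo+Cyta+DAC. The first of these comparisons stands beside 0.911% higher and 0.551% lower of all tested genes. The last 2 stand beside 24.9% higher and 23.7% lower, and 30.5% higher and 29.8% lower. In the last 2, the list as a whole was called about as often as the background.

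The genes named from the lists were picked on a contrast with Doxo or on likeness to the members. Their p-values in contrasts with Doxo, here and below, are thus descriptive. Among the other immediate early genes named here, NR4A1, an orphan nuclear receptor, followed the members most closely. It had 24.6 ± 1.41 CPM (NT), 91.4 ± 19.5 CPM (Doxo), 39.5 ± 5.33 CPM (Doxo+Cyta) and 21.9 ± 1.05 CPM (Doxo+Cyta+DAC; SD over 2, 3, 3 and 4 libraries), and was higher in Doxo than in each other group (log2 fold changes 1.89, 1.21 and 2.06, adjusted p = 0.000107, 0.00108 and 1.94e-07, edgeR). PPP1R15A, which recruits a phosphatase to the translation factor eIF2 alpha, was higher by 1.18, 0.71 and 2.06 (adjusted p = 0.000544, 0.00734 and 7.87e-08, edgeR). With Doxo+Cyta+DAC as the reference, NR4A1 and PPP1R15A were also higher in Doxo+Cyta (0.85 and 1.36, adjusted p = 0.000128 and 4.64e-07, edgeR). For KLF10, a TGF-beta-induced factor, Doxo exceeded Doxo+Cyta+DAC by 2.53 (SE 0.11, adjusted p = 1.51e-08, edgeR) and NT by 0.53 (SE 0.13, adjusted p = 0.0222, edgeR). Like EGR1, it was lower in Doxo+Cyta+DAC than in untreated cells (-1.99, adjusted p = 2.73e-07, edgeR). SOCS3, a feedback inhibitor of cytokine signalling, was lower in Doxo than in Doxo+Cyta+DAC by a log2 fold change of -1.85 (SE 0.20, adjusted p = 4.99e-06, edgeR). Its level in Doxo did not pass the test against NT (0.06, adjusted p = 0.896, edgeR) or Doxo+Cyta (-0.007, adjusted p = 0.991, edgeR). In Doxo+Cyta+DAC it was above NT by 1.91 (SE 0.23, adjusted p = 2.93e-05, edgeR).

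**Figure D3:**
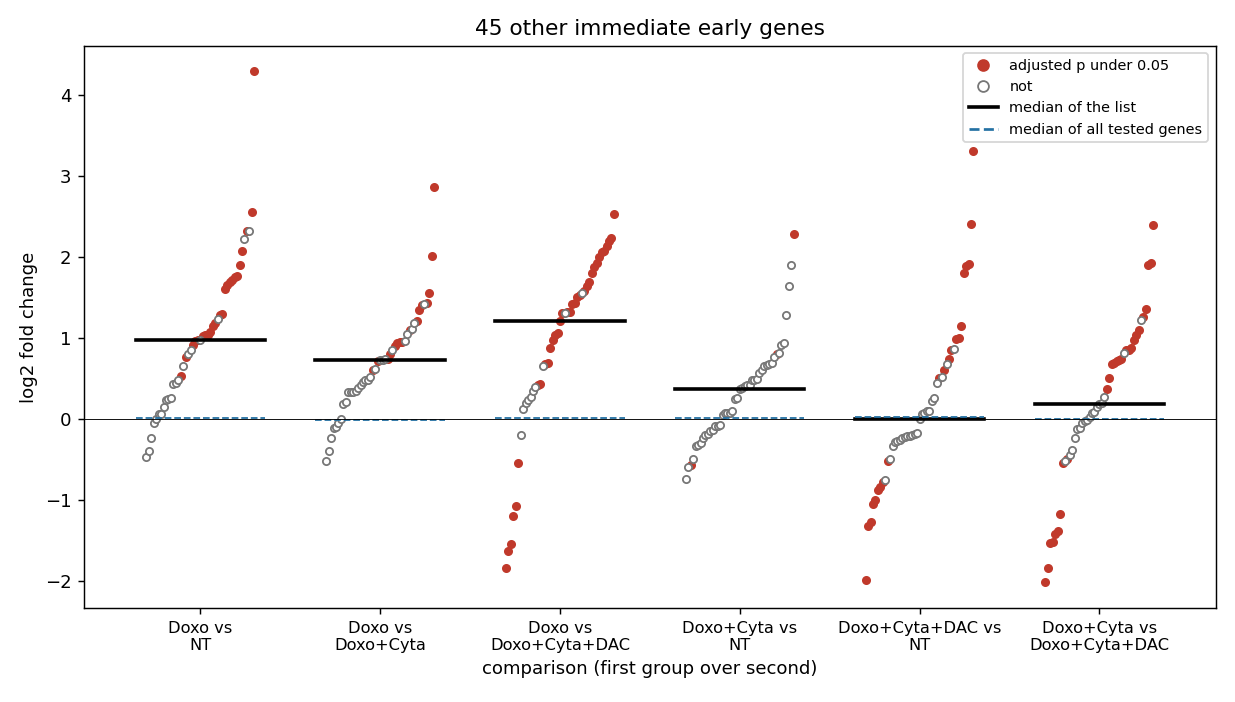
Log2 fold changes of 45 other immediate early genes in the 6 comparisons, sorted within each; red points passed an adjusted p of 0.05, black lines are the medians of the list and dashed lines those of all tested genes. The medians of the list are 0.97, 0.72 and 1.21 in the contrasts with Doxo, and genes lie on both sides of 0 in those without it.

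Among the 12 other AP-1 family genes, 3 were higher and none lower in Doxo relative to NT (6.06% of all tested genes higher) and also relative to Doxo+Cyta (2.32% higher), and 6 were higher and 3 lower relative to Doxo+Cyta+DAC, where 30.4% of all tested genes were higher and 29.1% lower. None was called relative to NT without NT 1 or without NT 2, and 1 relative to Doxo+Cyta without Doxo+Cyta 19. MAFF, a small MAF protein, was higher in Doxo than in each other group (log2 fold changes 1.24, 0.88 and 1.50 against NT, Doxo+Cyta and Doxo+Cyta+DAC, adjusted p = 0.00309, 0.0134 and 4.05e-06, edgeR). BATF3, a dendritic cell AP-1 factor, was lower in Doxo than in Doxo+Cyta+DAC (-2.62, SE 0.39, adjusted p = 6.41e-05, edgeR). Its level in Doxo did not pass the test against NT (-0.35, adjusted p = 0.665, edgeR), and Doxo+Cyta+DAC was above NT (2.28, adjusted p = 0.000833, edgeR). EGR4, the other EGR gene, had 0.700 ± 0.190 CPM (NT), 5.22 ± 3.38 CPM (Doxo), 0.706 ± 0.371 CPM (Doxo+Cyta) and 2.59 ± 0.178 CPM (Doxo+Cyta+DAC; SD over 2, 3, 3 and 4 libraries). Like EGR3, it rose in Doxo+Cyta+DAC over NT (1.89 on the log2 scale, SE 0.51, adjusted p = 0.00749, edgeR). NAB2, a corepressor of EGR factors, was highest in Doxo+Cyta+DAC (1.86 over NT, SE 0.34, adjusted p = 0.000513, edgeR).

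The other pathway lists were compared first in Doxo relative to Doxo+Cyta+DAC, where leaving out a library moved none of their counts by more than 1.5 times. Of 16 MAP kinase phosphatases and feedback genes 3 were higher and 4 lower, of 21 upstream kinases and factors 7 were higher and 5 lower, and of 15 cytoskeletal targets of SRF and MRTF 4 were higher and 5 lower. All tested genes stood at 30.4% higher and 29.1% lower. Relative to NT, the same lists had 4 higher and none lower, 1 higher and 1 lower, and 6 higher and none lower in Doxo (6.06% and 4.63% of all tested genes). Without NT 1 these counts fell to 1, 0 and 1 called genes, and without NT 2 to 1, 1 and 0. Without Doxo 5 or Doxo 6 the first fell to 2 and the second to 1. Of 14 AP-1 and EGR1 target genes, 9 were higher and none lower in Doxo with Doxo+Cyta+DAC as the reference, among them HMOX1, which degrades heme (log2 fold change 1.62, SE 0.14, adjusted p = 7.79e-07, edgeR), and the metallothionein MT2A (2.49, SE 0.23, adjusted p = 1.34e-06, edgeR). In Doxo+Cyta, with the same reference, 8 of the 14 were higher and none lower (30.5% and 29.8% of all tested genes). MT2A differed there by 1.98 (SE 0.23, adjusted p = 5.81e-06, edgeR), so that these calls were not particular to Doxo. Relative to NT, 5 were higher and none lower in Doxo (2 without NT 1, NT 2, Doxo 5 or Doxo 6). Between Doxo and Doxo+Cyta, 2 of the 14 were higher and none lower, where 2.32% of all tested genes were higher and 1.07% lower. This count was 1 without Doxo 5, Doxo 6 or Doxo+Cyta 22, and 4 without Doxo 4. In Doxo, HMOX1 also exceeded NT (1.49, adjusted p = 0.000407, edgeR) and Doxo+Cyta (0.69, adjusted p = 0.0192, edgeR). HMOX1 was higher in Doxo+Cyta, too, than in Doxo+Cyta+DAC (0.93, adjusted p = 6.12e-05, edgeR) and NT (0.80, adjusted p = 0.0394, edgeR). No gene of its list was called in Doxo+Cyta relative to NT without Doxo 5, Doxo 6 or Doxo+Cyta 19, among other libraries. Of 10 genes of the integrated stress response, to which PPP1R15A also belongs, 8 were higher and none lower in Doxo than in Doxo+Cyta+DAC. In Doxo+Cyta, with the same reference, 5 were higher and none lower, beside 30.5% and 29.8% of all tested genes. Against NT, 4 of these 10 were higher and none lower in Doxo (1 without NT 1 or NT 2, and 2 without Doxo 5 or Doxo 6), and against Doxo+Cyta 1 was higher (0 without Doxo+Cyta 19 and 3 without Doxo+Cyta 20). Of 11 heat shock genes, 4 were higher and 6 lower in Doxo than in Doxo+Cyta+DAC, and 3 higher and 1 lower than in NT, where 2 calls were left without NT 1 or Doxo 5 and 0 without NT 2. Their summed level was 2769 to 3397 CPM in Doxo, 2577 to 2627 in NT and 2356 to 2753 in Doxo+Cyta. This sum, unlike the members, was highest in Doxo+Cyta+DAC, at 5897 to 6245 CPM. Single genes differed, with log2 fold changes of Doxo over NT, Doxo+Cyta and Doxo+Cyta+DAC given in that order. DNAJB1 had 0.82, 0.75 and 1.47 (adjusted p = 0.00351, 0.00457 and 3.37e-07, edgeR). HSPA1A, with at most 20 counts, had 1.37, 1.27 and 1.65 (adjusted p = 0.097, 0.144 and 0.00499, edgeR). For HSPH1 and HSPD1 the last of these was -1.92 and -1.41 (adjusted p = 1.57e-08 and 1.64e-07, edgeR). Relative to NT, HSPH1 and HSPD1 had -0.45 and -0.06 in Doxo (adjusted p = 0.014 and 0.726, edgeR). In Doxo+Cyta+DAC they had 1.47 and 1.35 over NT (adjusted p = 5.31e-07 and 1.37e-06, edgeR).

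Over the 12 libraries, the 10 other genes whose log2 CPM followed the mean standardised level of the members most closely were ZNF394, ZNF296, ZNF222, FOSL1, ITPRIP, MYADM, HHEX, ZNF408, NR4A1 and SYAP1 (Pearson's r between 0.933 and 0.981). These values are a description, and all libraries share 1 cell line and fall into the same 4 groups. ZNF394, a zinc finger gene, had 26.9 ± 0.363 CPM (NT), 59.8 ± 0.922 CPM (Doxo), 34.3 ± 9.62 CPM (Doxo+Cyta) and 27.7 ± 1.93 CPM (Doxo+Cyta+DAC; SD over 2, 3, 3 and 4 libraries), and its r was 0.939 over the 9 libraries without Doxo. FOSL1, a further FOS-family gene, had 44.7 ± 2.79 CPM (NT, SD, n = 2) and 139 ± 18.8 CPM (Doxo, SD, n = 3), and its r was 0.667 over those 9 libraries. Over these 9, the mean standardised level of the members was 0.26 in Doxo+Cyta 20 and between -0.69 and -0.47 in the rest. These values of r without Doxo thus lean on 1 library. Among the members themselves the median r of the 45 pairs was 0.785 over 12 libraries and 0.243 over the 9 without Doxo, where it ran from -0.843 for EGR1 with EGR3 to 0.893.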

How the data were processed

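RNA from 12 HEL cultures was sequenced as paired-end TruSeq libraries. The authors checked reads with FastQC, aligned them to GRCh38 with Bowtie2 2.2.8 and counted fragments per gene with featureCounts 1.6.0 (Subread), without regard to strand. Bowtie2 does not split reads over exon junctions, which lowers counts of genes with many short exons. The deposited values are raw counts per gene, not normalized, and the deposited gene length in bases served for levels per kilobase. Of 26485 genes, 4 lacked a count and were left out. No exon of another gene overlaps those of the 10 members.

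Groups came from the sample labels. The protocol speaks of separate cultures; otherwise p-values would measure only the spread between samples. The labels name no sequencing batch, so no value within batches could be given. The series text mentions 3 untreated samples, and the 2 labelled ones were used. Counts were analysed in R 4.3.3 with edgeR 4.0.16: filterByExpr, TMM scaling, and 1 quasi-likelihood fit (glmQLFit, glmQLFTest) over all 12 libraries and 4 groups, with two-sided tests and Benjamini-Hochberg adjustment over 14164 genes per comparison at 0.05. The SE is the log2 fold change divided by the root of F. Log2 CPM used a prior count of 2. The fit was tested on simulated data.

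The members and gene lists were chosen with earlier results of these data known. For members, contrasts with Doxo are given without p-values. The other named genes were picked on a contrast with Doxo or on likeness to the members, so their p-values there are descriptive. Named genes were every member, from each list the 3 with the smallest p in Doxo relative to Doxo+Cyta+DAC and the called gene with the largest opposite fold change, and the 10 genes (mean of at least 1 CPM in their highest group) most like the members, of which the text describes a part. Tables were made with Python 3.11.15, numpy 2.4.6, pandas 2.3.3 and matplotlib 3.10.9. Alternatives were DESeq2 1.42.0, RLE and upper-quartile scaling, no filter, at least 10 counts in every library, only the 2 groups compared, and leaving out each library.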

Additional observations from a re-analysis of the deposited data

Results flagged for a closer look

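Of the 10 genes in the Doxo+Cyta+DAC group, the only group with at least 4 libraries, FOS had 1 library far from the others: Doxo+Cyta+DAC 31 was at 3.78 CPM, and the other libraries of the group were between 6.72 and 7.05 CPM. Its gap to the nearest library, divided by the range of the group, was above Dixon's critical value of 0.829. Chance gives about 1 such value in 20 groups, and 10 were examined.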

How the results depend on the processing

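No paired analysis was possible because no replicate number is shared between the groups. With 2 NT libraries, fits that leave 1 of them assume that it varies like the other groups, and counts relative to NT moved most there. All alternatives for the pathway lists and for the counts of non-overlapping libraries were chosen after seeing the data. In the contrasts with Doxo, no log2 fold change of a member changed sign under any alternative run. Since the members were chosen as high in Doxo, this is a description and no test. The DESeq2 Wald test called 933 genes in Doxo relative to Doxo+Cyta (481 with edgeR), 835 in Doxo+Cyta relative to NT (207 with edgeR) and 11 of the other immediate early genes in the latter (3 with edgeR). With only the 2 groups compared in the fit, the counts were 59 genes and 9 other immediate early genes in Doxo relative to Doxo+Cyta, and 13 genes, 0 members and 0 other immediate early genes in Doxo+Cyta relative to NT; no filter on low counts gave 358 genes there. Leaving out 1 library gave 86 to 3136 genes, 5 to 10 members and 7 to 29 other immediate early genes in Doxo relative to NT, 133 to 879 genes and 9 to 24 other immediate early genes in Doxo relative to Doxo+Cyta, 0 to 709 genes, 0 to 3 members and 0 to 7 other immediate early genes in Doxo+Cyta relative to NT, and 4471 to 7753 genes in Doxo+Cyta+DAC relative to NT. Doxo libraries above all others were found for 401 to 1729 genes. Of the members, log2 fold changes that did not pass the test changed sign without 1 library: in Doxo+Cyta relative to NT, FOS ran from -0.054 to 0.73, EGR2 from -0.32 to 0.73, IER2 from -0.70 to 0.20 and ATF3 from -0.20 to 0.45; in Doxo+Cyta+DAC relative to NT, JUNB from -0.10 to 0.069; and between Doxo+Cyta and Doxo+Cyta+DAC, FOS from -0.39 to 0.32, EGR2 from -0.068 to 0.99, IER2 from -0.28 to 0.62 and ATF3 from -0.34 to 0.30. The cause was not tested. Depth limits EGR2 and EGR3, which had 6 to 36 counts in the lowest libraries outside Doxo.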
